A study of Homo sapiens with 6 samples.

Results

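Transcripts of 10 tumour cell surface ligands were followed in OE33 cells: the checkpoint ligand genes CD274, CD276, PVR, NECTIN2 and CD47, and the NKG2D ligand genes MICA, MICB, ULBP1, ULBP2 and ULBP3. They were named by symbol, and each matched a single row of the 58051 genes in the count table through its Ensembl identifier in GENCODE 29. All 10 passed the filter on low counts, among 14773 genes that did. OE33 is an established human cell line from an oesophageal adenocarcinoma, grown as 1 line, so these data hold the variation between cultures and not between tumours. The APX2009 group was 3 cultures exposed to 15 µM APX2009, an inhibitor of the redox function of the DNA repair protein APE1, for 24 h. The untreated group was 3 cultures of the same line without the compound, and the labels name no vehicle. Polyadenylated RNA was sequenced once from each culture. The series sets out to find transcripts that depend on the redox function of APE1; its samples compare the presence of the compound with its absence.

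Checkpoint ligands on tumour cells bind receptors on T cells, natural killer (NK) cells and macrophages and mostly restrain them. PD-L1, made from CD274, binds PD-1 on T cells and is classically induced by interferon gamma. PVR and NECTIN2 are ligands both of the activating receptor DNAM-1 and of the inhibitory receptor TIGIT, and CD47 binds SIRP-alpha on macrophages as a signal against phagocytosis. MICA, MICB and the ULBP proteins resemble MHC class I molecules, appear on stressed or transformed epithelial cells, and activate NK cells through the receptor NKG2D.

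Gene counts summed to between 21158750 and 26111656 in the APX2009 libraries and to between 22443569 and 25093753 in the untreated libraries. One APX2009 library, replicate 1, stood apart. All 9 fibroblast and endothelial markers had counts in it, and without COL1A1 they summed to 6.82 CPM (counts scaled to a common library size), against 0.0889 and 0.144 CPM in APX2009 replicates 2 and 3 and 0.0445 to 0.361 CPM in untreated libraries. The ERCC spike-in transcripts held 0.315% of its counts, against 0.752% and 0.734% in the other APX2009 libraries and 0.480% to 0.564% in untreated libraries. COL1A1 itself averaged 11.3 ± 2.72 CPM in APX2009 libraries and 10.2 ± 2.19 CPM in untreated libraries (SD, n = 3 each). Leukocyte markers summed to 5.02 to 5.60 CPM in APX2009 libraries and 4.74 to 5.98 CPM in untreated libraries, nearly all from CD14 (3.63 CPM with APX2009, 4.11 CPM untreated) and CD79A (1.39 CPM with APX2009, 1.17 CPM untreated). Of the 8 leukocyte markers, CD3E and NKG7 were at 0 in all 6 libraries. CD247 had 3, 1 and 1 counts in APX2009 libraries and 0, 0 and 2 counts in untreated libraries. PTPRC had 6 counts in APX2009 replicate 1 and 0 in every other library. All 8 epithelial markers were detected in every library, with EPCAM at 446 ± 4.84 CPM in APX2009 and 447 ± 12.4 CPM in untreated cells. Their summed level was 15659 to 19489 CPM in APX2009 libraries and 27689 to 28372 CPM in untreated libraries. Most of it was KRT19, with a mean of 11303 CPM with APX2009 and 18555 CPM untreated. Of the 8, 5 (KRT8, KRT19, KRT18, ERBB2 and CDH1) were lower, as were 17.4% of all tested genes. EPCAM, CLDN4 (1109 CPM with APX2009, 1163 CPM untreated) and CLDN7 (464 CPM with APX2009, 416 CPM untreated) did not pass. The part of these markers in the results on the ligands was not tested.

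Of the 10 ligand genes, 4 fell in cells exposed to APX2009: NECTIN2 by 1.45-fold, ULBP1 by 1.40-fold, CD47 by 1.37-fold and PVR by 1.24-fold. None rose, and CD274, CD276, MICA, MICB, ULBP2 and ULBP3 did not pass the test. A gene is said to have fallen or risen at an adjusted p under 0.05 in edgeR's quasi-likelihood test, with Benjamini-Hochberg adjustment over all tested genes. The count of 0 higher genes was also 0 at an unadjusted p under 0.05 in edgeR, and 0 with DESeq2 and with limma voom. For the same 4 genes the libraries of the groups did not overlap, as was true of 49.4% of all tested genes (25% with APX2009 below, 24.5% above). Among all tested genes 34.7% changed, 17.4% by falling and 17.2% by rising. The 40% of the 10 genes that changed in either direction lies near the 34.7%. All 4 were falls, and their count was not tested against the 17.4%. The median log2 change was -0.06 over the 10 genes and 0.02 over all tested genes, and the median absolute log2 change was 0.16 over the 10 and 0.25 over all. Without APX2009 replicate 1 the same 4 genes were lower and MICB was higher. In bulk RNA, fewer cells carrying a transcript and less of it per cell cannot be told apart. With libraries scaled by their ERCC total, none of the 10 passed (smallest edgeR adjusted p = 1.00), and all 4 falls kept their direction, with log2 changes of -0.27 to -0.53.

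**Figure D1:**
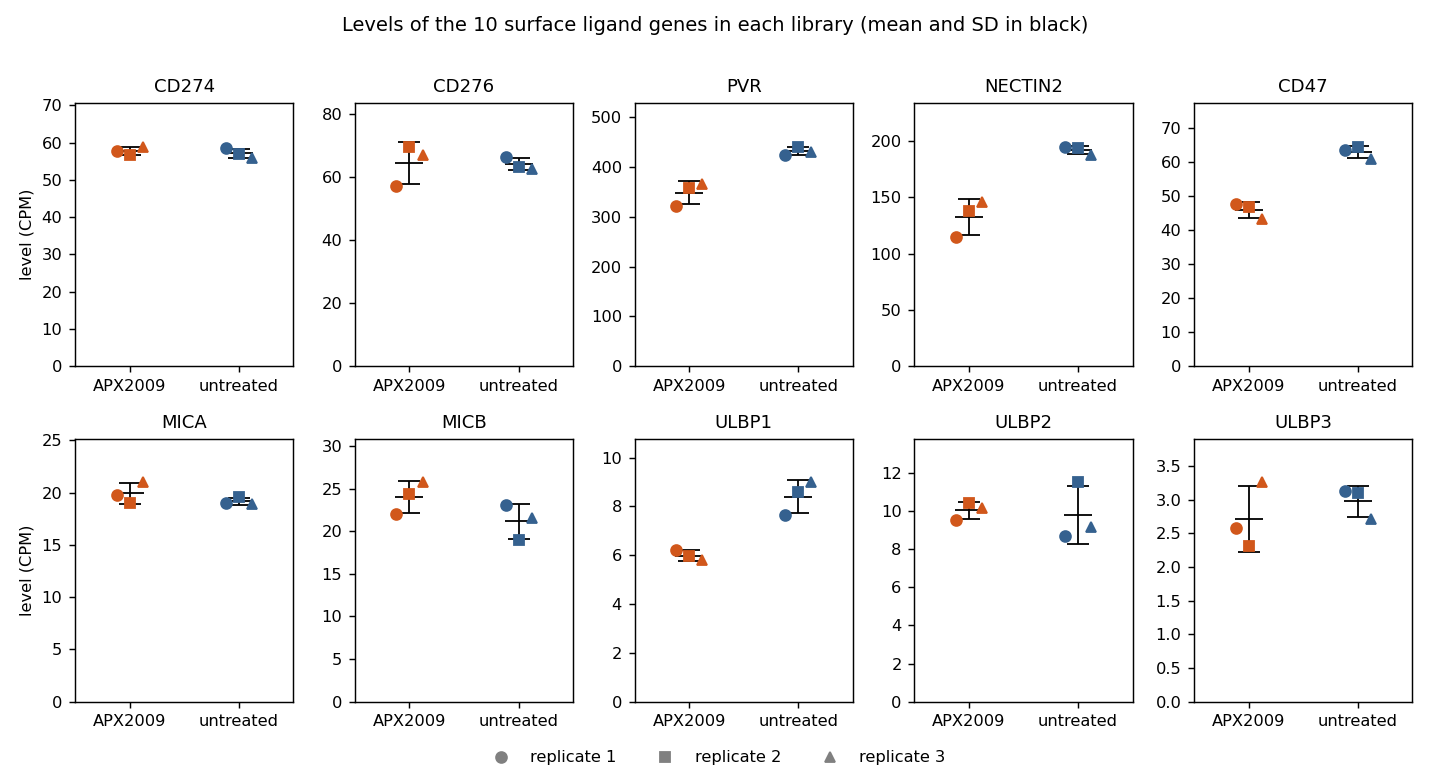
Level of each of the 10 ligand genes in CPM (vertical axis) in the 3 APX2009 libraries (orange) and the 3 untreated libraries (blue), with symbols for the replicate number and black bars for mean and SD. The groups are separate for PVR, NECTIN2, CD47 and ULBP1, with APX2009 below, and overlap for the other genes.

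CD274 (ENSG00000120217, chromosome 9, 5450503 to 5470566, plus strand), the gene of PD-L1, did not pass the test, and its interval was narrow. It had 57.8, 56.8 and 58.8 CPM in APX2009 libraries, against 58.4, 57.0 and 55.9 CPM in untreated libraries. The groups overlapped, and the spread within each was small. Its log2 change was 0.02 ± 0.06 (SE; edgeR adjusted p = 0.840), and its 95% interval from -0.11 to 0.15 spans a ratio of 0.926 to 1.11. Its promoter is shown because it holds matches to letters read by interferon-activated factors. The RefSeq window on GRCh38.p14, 250 bases before to 50 after the start (chr9:5450292-5450591, plus strand, 5′ to 3′), has in capitals 2 overlapping matches on the minus strand to the core of the interferon-stimulated response element, then a match to the STAT GAS motif, then a GC box.
CD274: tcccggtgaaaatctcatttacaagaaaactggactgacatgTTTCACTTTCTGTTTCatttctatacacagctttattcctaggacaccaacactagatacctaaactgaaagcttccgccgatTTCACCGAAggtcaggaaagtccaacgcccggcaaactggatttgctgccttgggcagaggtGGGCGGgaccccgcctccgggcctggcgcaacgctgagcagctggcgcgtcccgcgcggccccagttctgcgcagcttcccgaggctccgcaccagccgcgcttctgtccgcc
The core of the interferon-stimulated response element lay at -208 to -199 and -202 to -193 from the start and is found in 3.57% of 35116 such windows. The GAS motif, TTCNNNGAA, lay at -125 to -117 and is found in 7.66% of windows. CD274 was the only 1 of the 10 genes with either match in its window.

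CD276 (ENSG00000103855, chromosome 15, 73683966 to 73714518), which codes for B7-H3, a B7-family checkpoint molecule without an agreed receptor, also did not pass. Its level was 57.1, 69.5 and 66.9 CPM in APX2009 libraries and 66.2, 63.3 and 62.6 CPM in untreated libraries, so APX2009 replicate 1 was lowest and the other 2 APX2009 libraries were highest. Its log2 change was 0.0093 ± 0.08 (edgeR adjusted p = 0.938), with a 95% interval from -0.17 to 0.19. Without APX2009 replicate 1 it was 0.09 (edgeR adjusted p = 0.234).

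PVR (ENSG00000073008, chromosome 19, 44643798 to 44663583), the gene of CD155, was the most abundant of the 10 per exon length. It had 322, 357 and 366 CPM in APX2009 libraries, against 424, 439.8 and 429 CPM in untreated libraries. Every APX2009 value lay below every untreated one. The log2 change was -0.31 ± 0.07 (edgeR adjusted p = 0.00710). It became -0.26 without APX2009 replicate 1 and still passed (edgeR adjusted p = 0.00110). Of its exon bases 3.44% are shared on the same strand with CEACAM19, whose own log2 change was -0.02 (edgeR adjusted p = 0.897).

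NECTIN2 (ENSG00000130202, chromosome 19, 44846175 to 44889228), which codes for CD112 and lies 182.6 kb from PVR, fell as well. It had 114, 137 and 145 CPM in APX2009 libraries and 194, 193 and 187 CPM in untreated libraries. The groups were far apart, with APX2009 replicate 1 lowest. A log2 change of -0.53 ± 0.09 followed (edgeR adjusted p = 0.00108). It was -0.44 without APX2009 replicate 1 (edgeR adjusted p = 3.43e-05). Its change was the largest of the 10 with all libraries, but ULBP1 changed more without APX2009 replicate 1 (-0.52) or untreated replicate 1 (-0.55, against -0.53 for NECTIN2), and without APX2009 replicate 1 so did CD47 (-0.49). An antisense transcript, AC011481.2, covers 3.42% of its exon bases, and counting by strand is not stated. Its promoter window is shown as that of the gene with the largest change over all 6 libraries (chr19:44846047-44846346, plus strand); capitals mark 3 GC boxes (GGGCGG), the second overlapping a minus-strand match to the core of the antioxidant response element (TGACNNNGC) at -76 to -68.
NECTIN2: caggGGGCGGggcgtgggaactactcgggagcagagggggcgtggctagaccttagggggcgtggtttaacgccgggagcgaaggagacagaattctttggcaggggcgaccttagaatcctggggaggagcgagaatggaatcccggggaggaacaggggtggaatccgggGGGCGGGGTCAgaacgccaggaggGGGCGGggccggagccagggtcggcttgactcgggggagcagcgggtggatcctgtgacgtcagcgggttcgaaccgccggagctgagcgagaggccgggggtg

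CD47 (ENSG00000196776, chromosome 3, 108043094 to 108091862, minus strand) fell with little spread in either group. It had 47.6, 46.8 and 43.2 CPM in APX2009 libraries, against 63.4, 64.3 and 61.0 CPM in untreated libraries. The lowest untreated library was above the highest APX2009 library by more than the range of either group. CD47 had a log2 change of -0.46 ± 0.06 (edgeR adjusted p = 4.32e-04), and it was -0.49 without APX2009 replicate 1. SIRPA, the gene of its receptor, was transcribed in these cells as well, at 38.7 ± 2.63 CPM with APX2009 and 37.7 ± 2.31 CPM untreated, and did not pass (edgeR adjusted p = 0.733). Named after its values were seen, QPCTL, whose enzyme modifies CD47 so that SIRP-alpha can bind, had 15.0 ± 1.56 CPM with APX2009 and 14.9 ± 1.12 CPM untreated and did not pass either (edgeR adjusted p = 0.975).

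MICA (ENSG00000204520, chromosome 6, 31399784 to 31415315) and MICB (ENSG00000204516, 31494881 to 31511124) lie 79.6 kb apart within the MHC. MICA had 19.8, 19.0 and 21.0 CPM in APX2009 libraries and 19.0, 19.6 and 19.0 CPM in untreated libraries. These values overlapped, with a log2 change of 0.05 ± 0.08 and a 95% interval from -0.12 to 0.23 (edgeR adjusted p = 0.627). MICB had 22.0, 24.4 and 25.7 CPM in APX2009 libraries and 23.0, 19.0 and 21.5 CPM in untreated libraries. They overlapped through APX2009 replicate 1 and untreated replicate 1. The log2 change was 0.18 ± 0.10 with a 95% interval from -0.03 to 0.40 (edgeR adjusted p = 0.167), but 0.24 without APX2009 replicate 1, where it passed (edgeR adjusted p = 0.0496). Of the 50-base stretches in their transcripts, 1.89% of those of MICA occur in MICB and 1.61% of those of MICB in MICA.

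The promoter windows of MICA (chr6:31403345-31403644) and MICB (chr6:31497895-31498194), both on the plus strand, are printed because they are alike: a global alignment had 78.2% identical columns, against 46.3% to 53.8% for the other pairs among the NKG2D ligand genes. Both hold a match to a heat shock element, GAANNTTC, found in 6.77% of all windows and in none of the other 8 genes. It lay at -135 to -128 in MICA and at -139 to -132 in MICB. Capitals mark it, followed in MICB by the hypoxia core ACGTG, and in both by a GC box on the minus strand.
MICA: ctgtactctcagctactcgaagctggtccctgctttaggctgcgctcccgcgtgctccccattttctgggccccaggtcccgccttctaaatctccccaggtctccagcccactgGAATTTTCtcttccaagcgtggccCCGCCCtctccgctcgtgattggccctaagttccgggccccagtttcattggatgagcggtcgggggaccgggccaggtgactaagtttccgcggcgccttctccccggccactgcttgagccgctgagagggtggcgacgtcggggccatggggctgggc
MICB: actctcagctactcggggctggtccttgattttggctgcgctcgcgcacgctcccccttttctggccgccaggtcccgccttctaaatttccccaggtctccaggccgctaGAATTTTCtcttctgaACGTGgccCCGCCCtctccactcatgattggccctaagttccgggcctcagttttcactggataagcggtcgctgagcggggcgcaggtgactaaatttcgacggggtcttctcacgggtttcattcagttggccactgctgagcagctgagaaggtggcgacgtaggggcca

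ULBP1 (ENSG00000111981, chromosome 6, 149964007 to 149973710) fell, at low counts. It had 166, 134 and 121 counts, or 6.22, 5.96 and 5.80 CPM, in APX2009 libraries, against 171, 214 and 202 counts, or 7.64, 8.59 and 8.99 CPM, in untreated libraries. The groups did not overlap in CPM, with untreated replicate 1 nearest to the APX2009 values. For ULBP1 the log2 change was -0.49 ± 0.12 (edgeR adjusted p = 0.0104). It no longer passed without untreated replicate 3 (log2 change -0.44, edgeR adjusted p = 0.0603) and was -0.52 without APX2009 replicate 1 (edgeR adjusted p = 0.00769). Its window (chr6:149963693-149963992, plus strand) is shown as that of the NKG2D ligand gene that fell; of the 7 motifs searched it holds only GC boxes, in capitals, 1 on each strand.
ULBP1: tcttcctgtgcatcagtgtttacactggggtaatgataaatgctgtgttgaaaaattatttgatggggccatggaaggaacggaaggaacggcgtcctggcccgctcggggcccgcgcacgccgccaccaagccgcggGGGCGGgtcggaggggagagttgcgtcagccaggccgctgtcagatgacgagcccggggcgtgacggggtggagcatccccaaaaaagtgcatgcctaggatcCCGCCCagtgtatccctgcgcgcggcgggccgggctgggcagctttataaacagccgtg

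ULBP2 (ENSG00000131015, chromosome 6, 149942000 to 149949235) lies 14.8 kb from ULBP1 and did not pass. It had 9.51, 10.4 and 10.2 CPM in APX2009 libraries and 8.67, 11.5 and 9.17 CPM in untreated libraries, with untreated replicate 2 highest of all. It had a log2 change of 0.03 ± 0.13, with a 95% interval from -0.25 to 0.32 (edgeR adjusted p = 0.861). Of its 50-base stretches 29.4% occur in RAET1L, a near copy, so part of its reads could have been left uncounted or shared; RAET1L itself averaged 0.0740 CPM in APX2009 and 0.0595 CPM in untreated libraries. ULBP3 (ENSG00000131019, chromosome 6, 150063150 to 150069095, minus strand) had the fewest counts, 69, 52 and 68 counts in APX2009 libraries and 70, 77 and 61 counts in untreated libraries. In CPM these were 2.58, 2.31 and 3.26 with APX2009, against 3.13, 3.09 and 2.71 untreated. The groups overlapped, and the interval of its log2 change of -0.14 ran from -0.54 to 0.27 (edgeR adjusted p = 0.596). That interval includes the change seen in ULBP1.

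**Figure D2:**
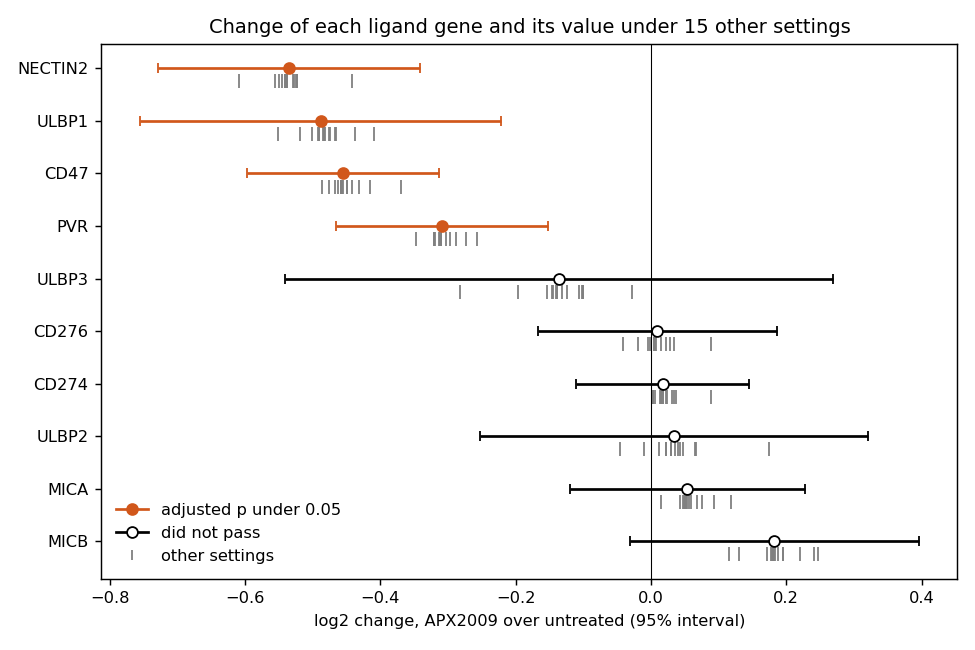
Log2 change of each ligand gene (APX2009 over untreated, horizontal axis) with its 95% interval; filled orange points passed at an adjusted p under 0.05, and grey ticks below each point are the values under 15 other settings. NECTIN2, ULBP1, CD47 and PVR lie below 0 with intervals that do not reach it, from -0.53 for NECTIN2 to -0.31 for PVR.

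Levels of different genes were compared per kilobase (kb) of GENCODE exon sequence, a length that merges all annotated isoforms and so is approximate. In APX2009 cells the order was PVR at 98.9 ± 6.58 CPM per kb, NECTIN2 at 35.3 ± 4.31, CD274 at 14.1 ± 0.246, CD276 at 11.6 ± 1.18, MICB at 8.59 ± 0.669, MICA at 8.35 ± 0.414, ULBP2 at 7.43 ± 0.340, CD47 at 5.57 ± 0.287, ULBP3 at 2.75 ± 0.493 and ULBP1 at 1.91 ± 0.0676. In untreated cells PVR had 122.5 ± 2.26 CPM per kb, above 98.1% of tested genes, NECTIN2 51.2 ± 0.994, CD274 13.9 ± 0.306 and CD276 11.6 ± 0.344. Below them MICA (8.04 ± 0.137 CPM per kb), CD47 (7.65 ± 0.213), MICB (7.57 ± 0.726) and ULBP2 (7.25 ± 1.11) lay close together; every MICA library was above every CD47 library, but the other pairs overlapped, as did ULBP3 (3.01 ± 0.233) and ULBP1 (2.68 ± 0.220). With APX2009, CD47 lay apart from that middle group: its highest library had 5.79 CPM per kb, under the lowest of ULBP2, at 7.05. ULBP1 likewise lay under ULBP3 in APX2009 cells, with 1.84 to 1.98 against 2.34 to 3.30 CPM per kb.

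The 5 NKG2D ligand genes together held 27.8, 28.6 and 30.7 CPM per kb in APX2009 libraries and 28.2, 29.4 and 28.0 in untreated libraries, so their sum overlapped between groups. ULBP1 made up 7.12%, 6.62% and 6.02% of that sum in APX2009 libraries, against 8.62%, 9.31% and 10.2% in untreated libraries. These shares did not overlap (exact permutation test, two-sided, p = 0.1, the smallest that 3 against 3 libraries allow; 0.3 adjusted over 6 shares compared). PVR and NECTIN2 together held 122, 138 and 143 CPM per kb in APX2009 libraries, below 172, 177 and 172 in untreated libraries. PVR made up 72.8% to 75.0% of that pair in APX2009 libraries and 69.9% to 70.9% in untreated libraries (exact permutation test, p = 0.1, adjusted 0.3). The shares of MICA, MICB, ULBP2 and ULBP3 overlapped between groups. Here and in the order above, values per kb were not corrected for sequence shared with other genes. Of 50-base stretches, 32.2% were shared for ULBP2, 12.4% for ULBP3 and 6.85% for ULBP1. For MICA and MICB these were 2.64% and 2.94%.

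**Figure D3:**
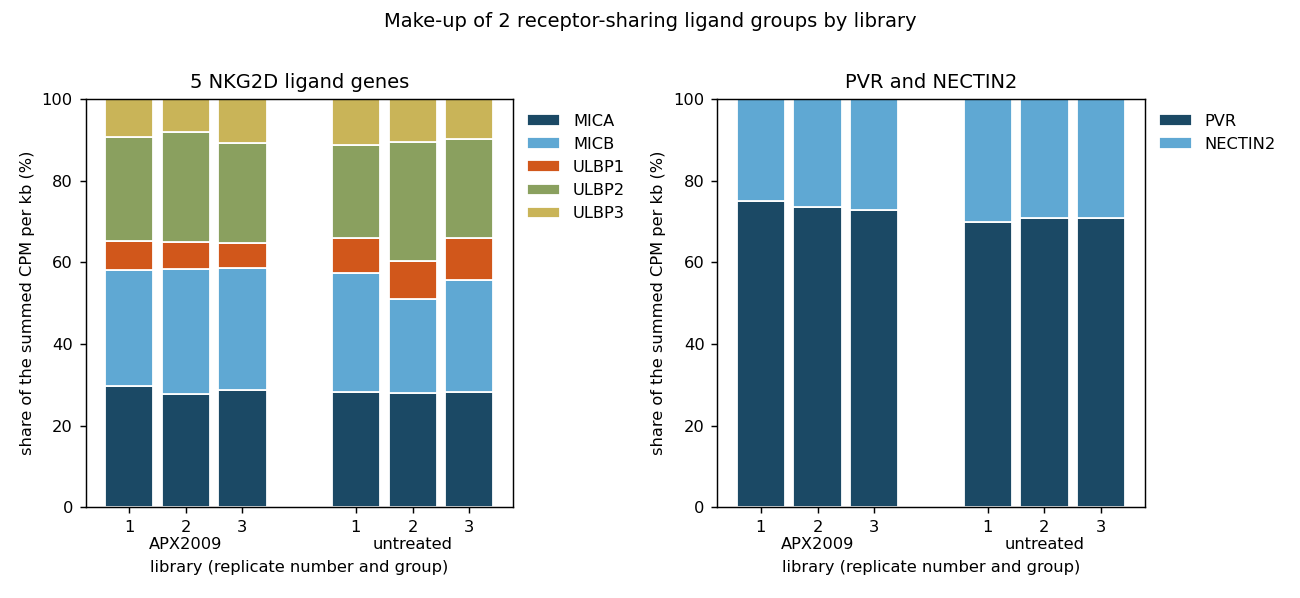
Share of each gene (vertical axis, %) in the summed CPM per kb of the 5 NKG2D ligand genes (left) and of PVR with NECTIN2 (right), 1 bar per library, APX2009 libraries left of untreated ones. The ULBP1 segment spans 6.02% to 7.12% in APX2009 bars and 8.62% to 10.2% in untreated bars.

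All 10 genes matched RefSeq promoter windows, 11 in all since CD276 has 2. The 4 genes that fell shared no searched motif: PVR held none of the 7, ULBP1 only GC boxes, and NECTIN2 and CD47 each a match to the antioxidant response element core (TGACNNNGC, in 13.3% of all windows) besides GC boxes. GC boxes (GGGCGG), found in 45% of all windows, were in 10 of the 11. An AP-1 site, TGANTCA, found in 7.71% of windows, lay at the start of ULBP2 (-2 to 5) and of ULBP3 (-6 to 1), neither of which passed. The hypoxia core ACGTG, in 21.4% of windows, was in the windows of CD47, MICB, ULBP3 and the second CD276 start. Every motif was searched on both strands; a match describes letters in the window and is not evidence of binding.

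**Figure D4:**
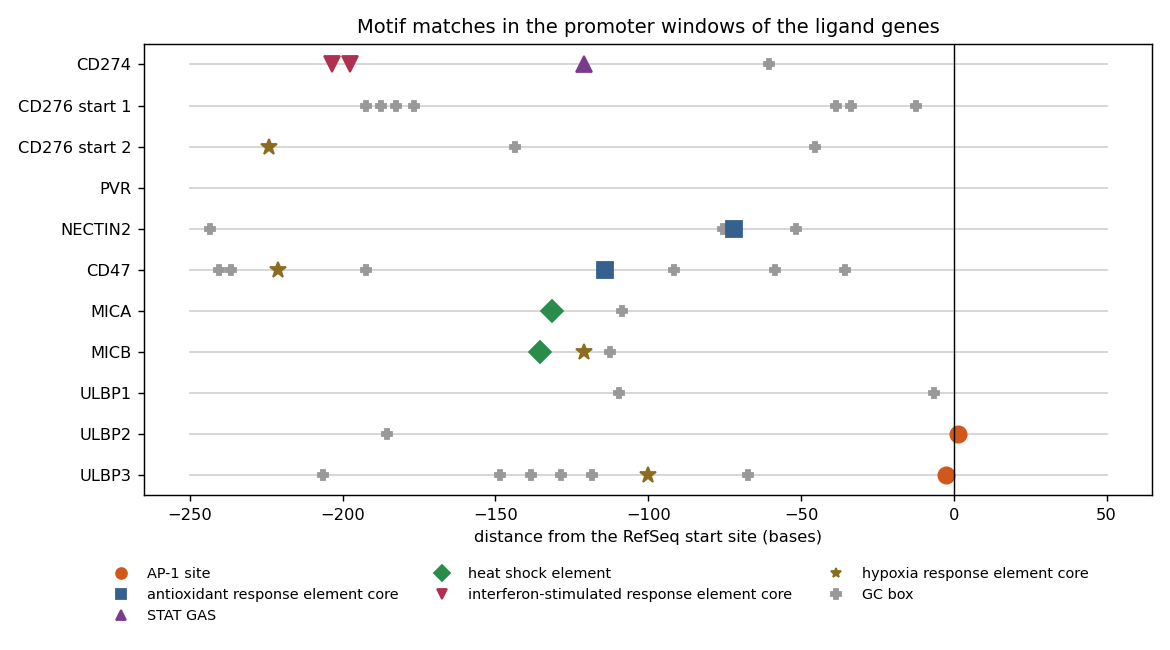
Positions of motif matches (symbols) along the 11 promoter windows, in bases from the RefSeq start site (horizontal axis, 0 marked by the line). The interferon core and GAS matches sit in CD274, the heat shock element in MICA and MICB, and the AP-1 site at the start of ULBP2 and ULBP3.

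Genes around the ligands were taken from lists written from general knowledge. The counts for each list stand beside shares of 17.2% rising and 17.4% falling among all tested genes. Among 28 other checkpoint and co-stimulatory ligand genes, 20 were tested, of which 4 rose (VSIR, BTN2A1, BTN2A2 and TNFSF9) and 4 fell (LGALS9, NECTIN1, LGALS3 and PDCD1LG2), with a median log2 change of -0.00078. Without APX2009 replicate 1, 4 rose and 6 fell. The BTN2A2 call was lost without any 1 library other than APX2009 replicate 1 (edgeR adjusted p up to 0.167) and with the replicate number as a block (0.0573). It was also lost with no filter and with DESeq2. TNFSF9 lost its call without APX2009 replicate 2 or 3 and without untreated replicate 1 or 2 (edgeR adjusted p up to 0.0788), and LGALS3 without APX2009 replicate 2 and without untreated replicate 2 or 3 (up to 0.0665). VSIR, the gene of the checkpoint ligand VISTA, had 102.1 ± 12.1 CPM in APX2009 cells and 66.9 ± 1.86 CPM in untreated cells and rose 1.52-fold (edgeR adjusted p = 4.45e-04). BTN2A1, a butyrophilin recognised by gamma delta T cells, rose 1.39-fold, to 52.5 ± 3.46 CPM with APX2009 against 37.8 ± 0.651 CPM untreated. LGALS9, which codes for galectin-9, a ligand of TIM-3, was 1.75-fold lower, at 37.8 ± 5.19 CPM with APX2009 and 66.3 ± 6.80 CPM untreated. NECTIN1, a further nectin, was 1.34-fold lower (70.9 ± 11.1 CPM with APX2009, 95.1 ± 3.57 CPM untreated). Chosen after its values were seen, PDCD1LG2, the gene of PD-L2 and the neighbour of CD274 at 40.0 kb, was 1.48-fold lower (2.17 ± 0.104 CPM with APX2009, 3.22 ± 0.476 CPM untreated; edgeR adjusted p = 0.0308), a call lost in 7 of 15 other settings, among them without APX2009 replicate 2 or 3 and without untreated replicate 1 or 2. Its difference from CD274 was not tested.

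Of 14 genes listed for the interferon route to PD-L1, 4 fell and 1 rose (IRF2, 1.22-fold), with a median log2 change of -0.05. The list is not confined to signalling by interferon gamma. SOCS3, a feedback inhibitor of cytokine signalling, was 1.61-fold lower (29.1 ± 3.21 CPM with APX2009, 46.8 ± 1.12 CPM untreated). The signal transducers STAT2 and STAT3 were 1.42-fold and 1.21-fold lower; STAT2 had 136 ± 6.14 CPM with APX2009 and 194 ± 6.73 CPM untreated. The calls on STAT3 and IRF2 were each lost without APX2009 replicate 2 and without untreated replicate 3, and also without untreated replicate 2 for STAT3 and untreated replicate 1 for IRF2 (edgeR adjusted p up to 0.0552 and 0.0730). IRF1, the factor that acts directly on the CD274 promoter and was chosen here after its values were seen, had 136 ± 17.1 CPM in APX2009 and 135 ± 3.95 CPM in untreated cells (edgeR adjusted p = 0.951). Exons of IRF1 overlap C5orf56 over 22% of their length and AC116366.3 over 6.01%, both on the other strand.

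Of 10 genes for partners and processing of the ligands, 3 rose and 1 fell, with a median log2 change of 0.03. PDIA6, a thiol isomerase that aids the shedding of MICA, rose 2.10-fold, to 688 ± 30.8 CPM with APX2009 against 328 ± 6.11 CPM untreated (edgeR adjusted p = 2.70e-06). ADAM17, a protease that releases MICA and MICB from the cell surface, rose 1.37-fold (133 ± 7.43 CPM with APX2009 and 96.8 ± 4.0 CPM untreated, edgeR adjusted p = 5.89e-04). Named after their values were seen, the listed proteases ADAM10 and MMP14 had log2 changes of -0.17 and 0.06. Neither passed (edgeR adjusted p = 0.0765 and 0.708). STUB1, a ubiquitin ligase that acts on PD-L1, was 1.47-fold lower, and CDK5, a kinase reported to favour PD-L1 expression, rose 1.24-fold. The CDK5 call was lost without APX2009 replicate 2 or 3 and without any 1 untreated library (edgeR adjusted p up to 0.114). It was also lost with no filter and with DESeq2. Exons of STUB1 overlap JMJD8 over 42.4% of their length, and those of PDIA6 overlap ATP6V1C2 over 25.2%, both on the other strand. On the other strand too, those of ADAM17 overlap IAH1 over 12.3% and those of CDK5 overlap SLC4A2 over 11.3%. These are transcript levels; shed or surface protein was not measured.

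Among 11 regulators reported for NKG2D ligands, 3 rose (DDIT3, XBP1 and ATF4) and 5 fell (E2F1, CHEK1, ATR and HSF1 among them). Their median log2 change was -0.22. Of all tested genes 17.2% rose and 17.4% fell. The stress factors DDIT3 and XBP1 rose 2.11-fold and 1.43-fold, while E2F1, a cell cycle factor, was 1.67-fold lower. Exons of DDIT3 overlap MARS on the other strand over 27.2% of their length. The HSF1 call was lost without APX2009 replicate 2 and without any 1 untreated library (edgeR adjusted p up to 0.125), that of ATR without APX2009 replicate 3 and without untreated replicate 2 or 3 (up to 0.107), and that of CHEK1 without untreated replicate 1 (0.0587). Of 8 other NK ligand genes 4 were tested and 2 fell: HLA-E, a ligand of the inhibitory receptor NKG2A, was 1.32-fold lower (765 ± 70.6 CPM with APX2009, 1008 ± 27.8 CPM untreated) and HLA-G 1.52-fold lower (1.94 ± 0.352 CPM with APX2009, 2.94 ± 0.374 CPM untreated). The HLA-G call was lost without APX2009 replicate 1 or 2 and without untreated replicate 2 or 3 (edgeR adjusted p up to 0.144). It was also lost with no filter and with DESeq2. BAG6 and CLEC2D did not pass (edgeR adjusted p = 0.548 and 0.679). Reads of HLA genes can be shared among near copies. The complement regulators CD46, CD55 and CD59, with 385, 310.3 and 362 CPM in APX2009 cells and 427, 288 and 368 CPM in untreated cells, did not pass: 0 of 3 in edgeR, also 0 at an unadjusted p under 0.05, with DESeq2 and with limma voom. Of 8 receptor genes for the ligands, SIRPA and PVRIG were tested and 0 passed (edgeR adjusted p = 0.733 and 0.0526), also 0 with DESeq2. PVRIG (1.37 ± 0.211 CPM with APX2009, 0.689 ± 0.336 CPM untreated) lay close to the threshold: its unadjusted p was under 0.05, and it passed with limma voom (adjusted p = 0.0393) and in edgeR with the replicate block (adjusted p = 0.0254), with no filter (0.0366), with at least 1 CPM in 3 libraries (0.0475) and without untreated replicate 1 (0.0255). PVRIG shares 80.9% of its exon bases with STAG3. TIGIT and KLRK1, the gene of NKG2D, were at 0 in all libraries.

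**Figure D5:**
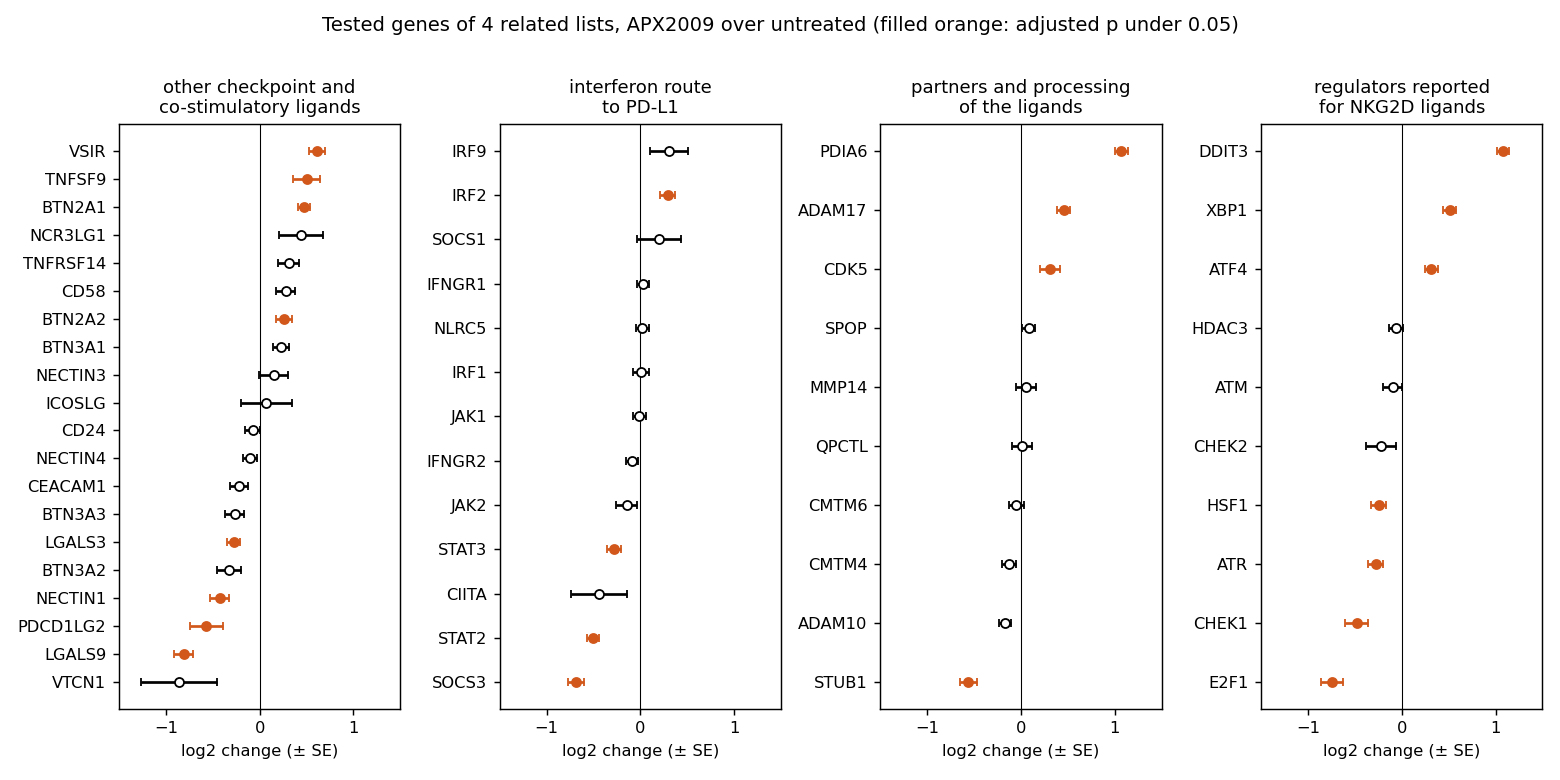
Log2 change (APX2009 over untreated, ± SE, horizontal axis) of tested genes in 4 lists around the ligands, with filled orange points for an adjusted p under 0.05. Members of every list lie on both sides of 0, from PDIA6 (1.07) and DDIT3 (1.08) to LGALS9 (-0.81) and E2F1 (-0.74) among those that passed.

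The 5 genes whose levels over the 6 libraries were most like those of NECTIN2, by root mean square distance of centred log2 CPM among 9752 genes, were PROSER2 (0.0203), CD74 (0.0225), STUB1 (0.0290), ARHGAP23 (0.0303) and FLII (0.0319). Their log2 changes ran from -0.51 to -0.58, against -0.53 for NECTIN2. This closeness follows from the choice, since the distance includes the difference between the groups. Around NECTIN2, 3 of 6 tested genes within 100 kb fell, among them TOMM40 (log2 change -0.46) and BCAM (-1.13). Of all tested genes 17.4% fell. Of 4 genes around PVR none passed the test. Around CD274 and MICA, which did not pass themselves, 2 of 2 and 3 of 5 tested neighbours fell. Near MICA, HCP5 (-0.55) and HLA-B (-0.48) fell. HCP5 also lies within 100 kb of MICB, near which DDX39B (0.57) and NFKBIL1 (0.29) rose. HCP5 overlaps 2.6% of the exon bases of MICA. Around ULBP1, none of 5 tested neighbours passed the test, ULBP2 and ULBP3 among them. Around ULBP2, 2 of 5 fell, ULBP1 and AL355312.3 (log2 change -0.99, 1.14 CPM with APX2009, 2.28 CPM untreated). Around ULBP3, 1 of 3 fell, ULBP1. The 1 tested neighbour of CD276 and the 1 of CD47 did not pass.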

How the data were processed

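RNA sequencing gave raw whole-number counts per Ensembl gene, deposited by the authors with no normalization, for 58051 genes and 92 ERCC rows. Trimmomatic 0.36, STAR 2.5.2b, Subread 1.5.2 with featureCounts, and the build GRCh38 are listed in the submitters' processing notes, without their order or settings; the strand setting and annotation release are not stated there. Symbols and exon lengths came from GENCODE 29 (57447 IDs matched; the others held 0.0348% of counts).

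ERCC rows were left out of library sizes and tests. Genes passing filterByExpr were scaled by TMM and tested on treatment alone with edgeR 4.0.16 in R 4.3.3 across all 14773 genes; SE came from the F statistic. CPM used TMM-adjusted library sizes. The fit was tested on simulated counts. Promoters came from RefSeq (GRCh38.p14). Named were all 10 genes, up to 4 genes of smallest p per list, markers of at least 1 CPM and the 5 genes most like the most changed ligand gene; some list genes are counted but not reported here. The ligand genes and lists were chosen with earlier results of these data known. Replicates are described as independent biological ones. Alternatives were other scalings, filters and thresholds, leaving out each library, a replicate block, DESeq2 1.42.0 and limma voom (limma 3.58.1).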

Additional observations from a re-analysis of the deposited data

How the results depend on the processing

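RLE factors, total counts, upper-quartile factors, both other filters, DESeq2 and limma voom kept 4 of the 10 ligand genes lower and 0 higher. ERCC scaling left 0 lower and 0 higher (0 at an unadjusted p under 0.05 in edgeR), while 129 of all genes were then higher and 7 lower, against 2543 and 2576; it also ended the calls of all 32 list genes, with no change of direction. The cause was not tested; APX2009 replicate 1 had the lowest spike-in share. At an adjusted p under 0.01, 3 ligand genes were lower, and 1470 of all genes were higher and 1587 lower. Leaving out each library gave 3 to 4 ligand genes lower, 0 to 1 higher, and 1708 to 2839 of all genes higher and 1795 to 2870 lower. The log2 change of CD276 turned to -0.0013 with no filter and ran from -0.041 to 0.089 over libraries left out; that of ULBP2 ran from -0.045 to 0.17. MICB passed without APX2009 replicate 1 alone, and ULBP1 was lost without untreated replicate 3 alone. With the replicate number as a block, 4 ligand genes were lower and 2757 and 2744 of all genes higher and lower, and no call on a ligand gene changed; among the list genes named, PVRIG passed and BTN2A2 did not. Deviations of same-numbered libraries correlated at 0.134, 0.0717 and 0.0019, and APX2009 replicate 3 correlated best with untreated replicate 2, so the numbers were not taken as pairs. Depth limits ULBP3 most, with 52 to 77 counts per library.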
